A study of Mus musculus with 10 samples.

Results

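The genes described here are the mouse globins and the erythroid enzyme of haem synthesis: the adult beta globins Beta-s, Hbb-b1 and Hbb-b2, the adult alpha globins Hba-a1 and Hba-a2, the embryonic globins Hba-x (zeta) and Hbb-bh1 (beta-like), and Alas2. They were taken as the non-control probes of the array that carry one of these 8 gene names, which gave 8 probes, 1 per gene, of 55681 probes for 36161 gene names. The study compared untreated neuroblastoma tumours of mice, 5 per group, as mRNA profiles on 10 arrays with 2 dyes. The ALK/MYCN group was ALK+/-, MYCN+/- transgenic and expressed the F1174L mutant of the ALK receptor kinase with the MYCN oncogene, on a C57BL/6 x 129X1/SvJ background. The MYCN group was MYCN+/- transgenic on 129X1/SvJ. Both groups therefore carried the MYCN transgene, and the second transgene and the strain background changed together, so that their contributions cannot be told apart. The age of the mice, the promoter of each transgene and the blood content of the tumours were not given in the sources used here.

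A red blood cell carries haemoglobin, a tetramer of alpha-type and beta-type globin chains that each bind haem. Globin genes lie in 2 clusters in which embryonic and adult genes are used in turn during development, and inbred mice differ in the adult beta genes they carry, with Beta-s belonging to the haplotype of C57BL/6. Alas2 makes the first product of the haem pathway in erythroid cells, whereas Alas1 does so in other cells. Immature red cells keep globin and Alas2 mRNA after their nucleus is lost. In bulk tumour RNA, fewer cells of a type and less RNA per cell cannot be told apart.

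Each probe is a single strand of 60 bases, and the sequences show how far one globin probe could take signal from another. Of the 28 pairs of member probes, Hbb-b2 and Hba-a1 were the most alike by share of identical bases in the best ungapped overlap of at least 30 bases. They are printed here as the pair with the greatest likeness between the families, and capitals mark the 25 of 40 overlapping bases that are identical.
Hbb-b2 probe: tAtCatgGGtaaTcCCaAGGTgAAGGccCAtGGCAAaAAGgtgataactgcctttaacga
Hba-a1 probe: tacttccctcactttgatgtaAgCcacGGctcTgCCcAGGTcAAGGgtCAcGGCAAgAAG
Over all 28 pairs, the longest run of bases shared by any pair of member probes was 8. The probe of Hba-x, shown as the embryonic alpha-type probe whose signal stayed near the array's floor, has no capitals because none of its comparisons is marked.
Hba-x probe: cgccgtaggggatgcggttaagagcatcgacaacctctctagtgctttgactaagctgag

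Likeness of transcripts matters more than likeness of probes, because a probe can bind the mRNA of a similar gene. The Beta-s probe starts at base 4 of its transcript, which RefSeq now names Hbb-bs, and 46 of its bases lie inside the RefSeq promoter window of that gene and are all identical to it. In the matching window of Hbb-bt, the RefSeq name of the gene that the Hbb-b1 probe was designed on, 38 of 45 bases were identical. The first 30 bases of the Beta-s probe and the matching stretch of Hbb-bt are set side by side because both transcripts start there, with the differing bases in capitals.
Beta-s probe: tttgcttctgaCATAgttgtgttgactCAc
Hbb-bt: tttgcttctgaTTCTgttgtgttgactTGc
Counted from 1 at the 5′ end of the probe, with the probe's base first, the 7 substitutions were C12T, A13T, T14C, A15T, C28T, A29G and C35T, the last of them outside the stretch shown. The files assign the Hba-a1 and Hba-a2 probes to the same 2 RefSeq transcripts, so these probes do not separate the adult alpha genes. The Beta-s and Hbb-b2 probes share 2 predicted transcripts. The 2 adult alpha probes, and likewise the Beta-s and Hbb-b2 probes, are therefore not independent measurements of separate genes. The Hbb-b1 probe is assigned to 1 RefSeq transcript, which no other member probe shares. How far it takes signal from the other beta genes was not tested.

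On the mm9 build that the files use, the probes lie in the globin clusters of chromosomes 7 and 11 and on X. The Beta-s probe is at chr7:110976379-110976438, Hbb-b1 at chr7:110961105-110961164 and Hbb-bh1 at chr7:110990209-110990268, all on the minus strand, while the Hbb-b2 probe is given as unmapped. The Hba-x probe is at chr11:32177668-32177727, Hba-a1 at chr11:32183955-32184014 and Hba-a2 at chr11:32197245-32197304, all on the plus strand, and Alas2 is at chrX:147004993-147005052 on the plus strand. Hbb-b1, Hba-a2, Hbb-bh1 and Alas2 are probed far along the transcript, from bases 503, 497, 493 and 1806, and Hbb-b2, Hba-a1 and Hba-x nearer the start, from bases 195, 161 and 258. Exon and untranslated region limits were not used here.

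Between 53.8% and 58.7% of the spots on an array gave Cy3 signal well above background, and 0 spots were saturated. All 12 sympathetic neuroblast markers passed the filter on dim probes, as the tissue label would need. The ALK/MYCN 3, MYCN 2 and MYCN 5 tumours carried markers of other tissues in earlier results of these data, so the member differences are also given without them. The arrays came from 3 slides that each held both groups. The labels call the tumours biological replicates, and the number of arrays limits the precision of every value.

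The 5 adult globins and Alas2 were lower in the ALK/MYCN tumours. Each array carried tumour RNA in Cy3 and one common reference RNA, made from 11 mouse cell lines, in Cy5. By the log2 ratio of Cy3 over Cy5, the difference of ALK/MYCN minus MYCN ran from -2.75 to -0.54, and by the Cy3 signal alone from -3.76 to -3.56, which is 11.8-fold to 13.6-fold lower. All 6 probes passed the limma test at an adjusted p of 0.05 on both scales, although the ratio of Hba-a2 turned to 0.13 in the other direction when median centring replaced the loess step. For comparison, 24.9% of the 30857 probes tested were called by the ratio in either direction. Of the tested probes, 11.2% were called lower in ALK/MYCN by the ratio and 9.64% by Cy3 alone. On neither scale did the groups overlap for any of the 6, against 8.02% of probes with no overlap in that direction by the ratio and 7.28% by Cy3. The embryonic genes Hba-x and Hbb-bh1 failed the filter and were not tested.

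Beta-s is an adult beta chain gene. Its Cy3 intensity was 991, 323, 634, 284 and 749 in ALK/MYCN 1 to 5, and 1781, 17281, 4862, 9400 and 9053 in MYCN 1 to 5. Every ALK/MYCN tumour lay below every MYCN tumour, and MYCN 1 was far below the other MYCN tumours. The mean log2 ratio was 2.80 ± 0.56 (SD, n = 5) in ALK/MYCN and 5.54 ± 0.81 (SD, n = 5) in MYCN, a difference of -2.75 ± 0.39 (SE; limma adjusted p = 0.00126). By Cy3 alone the difference was -3.68 ± 0.59 (SE; limma adjusted p = 0.00299), a 12.8-fold lower signal with 8.49-fold to 19.3-fold spanned by 1 SE. The ratio of scanner-processed signals gave -1.30 (limma adjusted p = 0.0257).

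Hbb-b1 and Hbb-b2 are the other adult beta chain genes on the array. The Hbb-b1 intensity in Cy3 was 9471, 2777, 4914, 2799 and 7196 in ALK/MYCN 1 to 5, and 17677, 159640, 42082, 112109 and 65266 in MYCN 1 to 5. For Hbb-b2 it was 6662, 2034, 3766, 1836 and 4766 in ALK/MYCN 1 to 5, and 11814, 105104, 35560, 67044 and 59618 in MYCN 1 to 5. Both probes separated the groups and both had MYCN 2 as the highest and MYCN 1 as the lowest of the MYCN tumours. The ratio difference was -0.60 ± 0.11 (SE; limma adjusted p = 0.00444) for Hbb-b1 and -0.57 ± 0.11 (SE; limma adjusted p = 0.00532) for Hbb-b2. The Cy3 difference was 13.1-fold for Hbb-b1 and 13.6-fold for Hbb-b2 (-3.71 and -3.76 on the log2 scale). Both probes missed the threshold by the ratio of scanner-processed signals (-0.18 for Hbb-b1 and -0.02 for Hbb-b2) and under median centring (-0.08 and -0.09). Hbb-b2 also missed it under spike-in centring (-0.36, limma adjusted p = 0.0513).

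Hba-a1 and Hba-a2 encode the adult alpha chain. The Hba-a1 intensity in Cy3 was 20435, 6214, 10215, 5595 and 13276 in ALK/MYCN 1 to 5, and 31439, 295423, 97696, 213642 and 167826 in MYCN 1 to 5. The Hba-a2 intensity was 60658, 21022, 34310, 17743 and 43703 in ALK/MYCN 1 to 5, and 102274, 736595, 311658, 583854 and 488339 in MYCN 1 to 5. As with the beta chain, no ALK/MYCN tumour reached the lowest MYCN tumour. The ratio difference was -0.79 ± 0.14 (SE; limma adjusted p = 0.00360) for Hba-a1 and -0.54 ± 0.12 (SE; limma adjusted p = 0.0111) for Hba-a2. The Cy3 difference was 13.2-fold for Hba-a1 and 11.8-fold for Hba-a2. The ratio of Hba-a1 was -0.16 under median centring, past no threshold, and the call of Hba-a2 was also lost under spike-in centring (-0.33, limma adjusted p = 0.104) and without ALK/MYCN 3, MYCN 2 and MYCN 5 (-0.56, limma adjusted p = 0.063).

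Alas2, the erythroid enzyme that condenses glycine with succinyl-CoA, had a Cy3 intensity of 292, 96.1, 180, 79.9 and 236 in ALK/MYCN 1 to 5, and of 562, 4873, 1554, 2979 and 2839 in MYCN 1 to 5. The order of the tumours was that of the globins. The mean log2 ratio was 1.47 ± 0.53 (SD, n = 5) in ALK/MYCN and 4.03 ± 0.65 (SD, n = 5) in MYCN, a difference of -2.56 ± 0.33 (SE; limma adjusted p = 8.89e-04). By Cy3 alone Alas2 was 13.5-fold lower, and its ratio of scanner-processed signals (-1.30, limma adjusted p = 0.0706) missed the threshold.

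**Figure D1:**
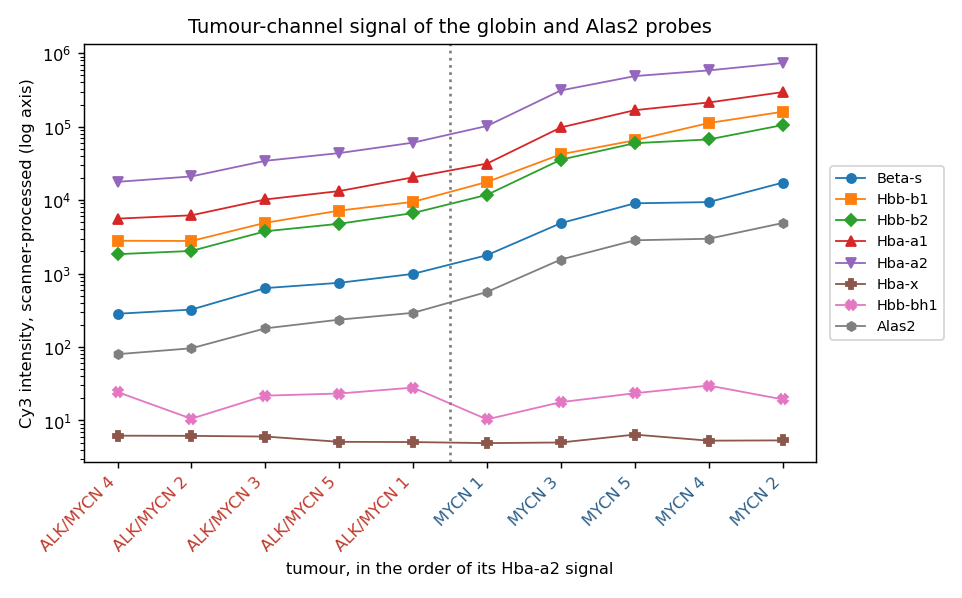
Scanner-processed Cy3 intensity (log axis) of the 8 probes in each of the 10 tumours, ordered by the Hba-a2 signal; a dotted line divides ALK/MYCN (left) from MYCN (right), and heights of different probes are not comparable. The 6 tested probes are low in the same tumours and high in the same tumours, apart from a small step down of Hbb-b1 between ALK/MYCN 4 and ALK/MYCN 2, whereas Hba-x and Hbb-bh1 stay below 30 in every tumour.

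The 6 probes ranked the 10 tumours in 1 order by Cy3. From the highest, it ran MYCN 2, 4, 5, 3 and 1, then ALK/MYCN 1, 5, 3, 2 and 4 by the scaled signal. The step from the lowest MYCN tumour to the highest ALK/MYCN tumour was 0.72 to 1.04 on the log2 scale, depending on the probe. That step was smaller than the spread inside either group, which was 1.77 to 1.88 from lowest to highest in ALK/MYCN and 2.90 to 3.33 in MYCN. The tumours thus formed a graded series with no overlap of the groups.

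The proportions of the members to one another in the tumour channel were compared as well. For each of the 15 pairs of tested probes, the Cy3 difference within each array was compared between the groups. These differences moved by -0.20 to 0.19 on the log2 scale between the groups. By a two-sided exact permutation test over the 252 assignments of tumours, whose smallest possible p is 0.00794, 1 of 15 pairs had an unadjusted p under 0.05. A single pair at that smallest p reaches 0.119 after Benjamini-Hochberg adjustment over the 15, so 1 pair alone could not pass, and 0 of 15 did. That pair was Hbb-b2 against Hba-a2, with a shift of -0.20 (95% interval -0.36 to -0.04; exact permutation p = 0.00794, adjusted p = 0.119). The interval was narrow for Hbb-b2 against Alas2 (-0.11 to 0.09) and for Beta-s against Alas2 (-0.03 to 0.18), and over all pairs the bounds lay between -0.50 and 0.40. On the ratio scale the same comparison gave shifts from -2.21 to 2.03, and 9 of 15 pairs passed the same test.

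The scales differ in the use of the reference channel, and also in background correction and normalization. The Cy5 signal of these probes differed between arrays, although the labels give the same reference RNA for all. For Hba-a1 the Cy5 intensity was 1245, 429, 755, 538 and 939 on the arrays of ALK/MYCN 1 to 5, and 1641, 12553, 4468, 8493 and 7644 on those of MYCN 1 to 5. The arrays with high tumour signal were those with high reference signal, and the groups did not overlap in Cy5 either. For Hbb-b2 the Cy5 intensity was 112 to 486 in ALK/MYCN against 801 to 6542 in MYCN, a 58.2-fold range over the arrays. For Beta-s and Alas2 the reference signal was well above background on 4 of 10 arrays only. Over all arrays it was 0.398% to 3.06% of Cy3 for Beta-s and 1.17% to 9.38% for Alas2.

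**Figure D2:**
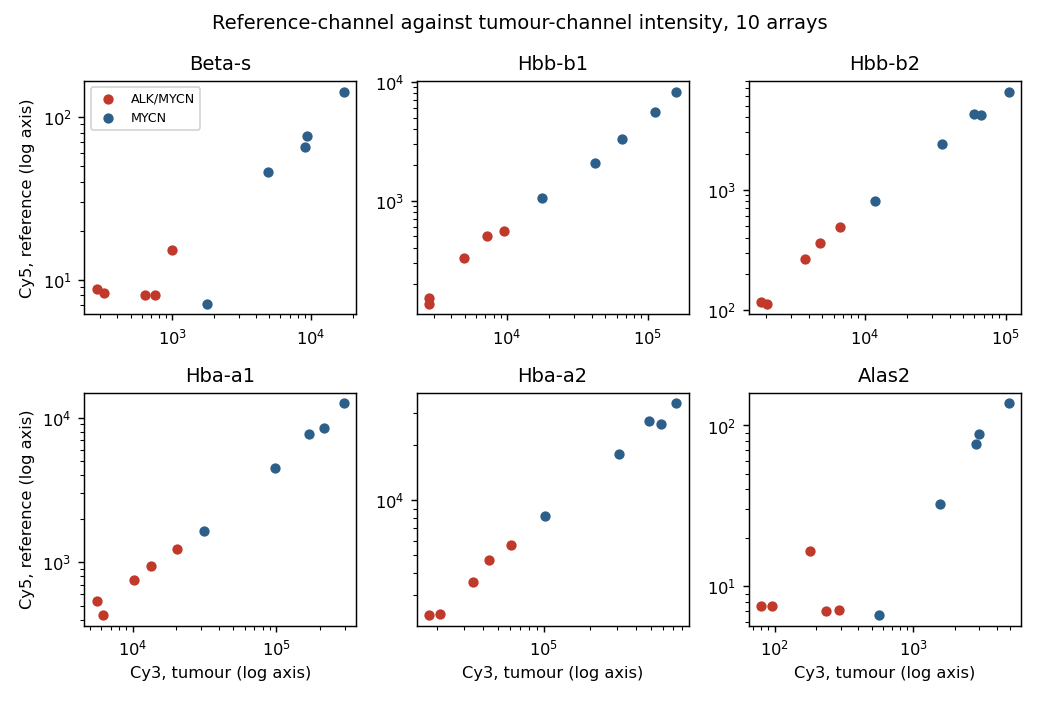
Cy5 (reference) against Cy3 (tumour) scanner-processed intensity, both on log axes, for the 6 tested probes; each point is 1 array, red for ALK/MYCN and blue for MYCN tumours. For the alpha globins, Hbb-b1 and Hbb-b2 the reference signal is low where the tumour signal is low and high where it is high, and for Beta-s and Alas2 it exceeds 30 on 4 MYCN arrays only.

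By Cy5 alone, the members differed between the groups by -3.72 to -2.35. Hba-a2 passed the limma test there, with 0.0454% of all probes called lower, and the others had limma adjusted p-values of 0.0566 to 0.407. The SD of Cy5 over the 10 arrays was 1.51 to 2.20 on the log2 scale for the members, against a median of 0.110 over all tested probes, and 99.65% or more of those probes had a smaller SD. The Cy5 difference was 0.64 to 0.99 of the Cy3 difference in the members. Over all probes whose Cy3 differed by more than 1.5, the median of that quotient rose with the mean ratio of tumour over reference, from -0.00082 in 218 probes under a log2 ratio of -2 to 0.269 in 89 probes over 3. The cause was not tested. The ratio difference of each of the 6 probes was smaller than its Cy3 difference, and ratio differences of different members are not comparable in size.

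**Figure D3:**
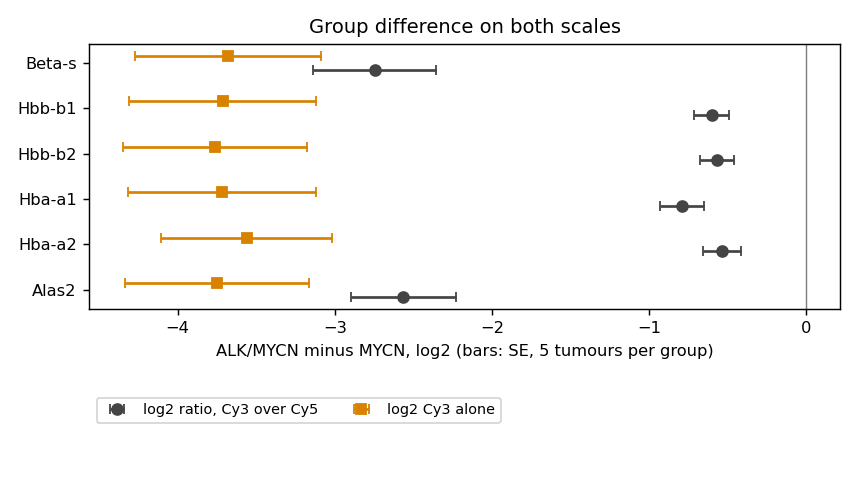
Difference between ALK/MYCN and MYCN on the log2 scale for the 6 tested probes, by the ratio of Cy3 over Cy5 (circles) and by Cy3 alone (squares); bars are SE from limma with 5 tumours per group. The Cy3 differences lie between -3.76 and -3.56, whereas the ratio differences run from -2.75 to -0.54, with that of Hba-a2 at 0.13 under median centring.

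The difference appeared within each slide. By Cy3 alone it was -2.56 to -2.17 over the 6 probes on slide 1, with 1 tumour per group, and -4.59 to -4.18 on slide 2, with 3 ALK/MYCN tumours and 1 MYCN tumour. On slide 3, with 1 ALK/MYCN tumour and 3 MYCN tumours, it was -3.75 to -3.48. The ratio differences were -1.89 to -0.21, -3.18 to -0.70 and -2.69 to -0.46 on the same slides. No test was run within a slide. Without ALK/MYCN 3, MYCN 2 and MYCN 5, the Cy3 differences were -3.25 to -3.12, and all 6 probes stayed past the threshold (highest limma adjusted p = 0.0302). The ratio differences without these 3 tumours were -2.46 for Beta-s, -0.55 for Hbb-b1, -0.56 for Hbb-b2 and for Hba-a2, -0.81 for Hba-a1 and -2.29 for Alas2. All but Hba-a2 passed limma, with Hbb-b1 nearest the threshold (adjusted p = 0.0483).

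The embryonic globins showed no group pattern. Hba-x, the zeta chain of the yolk sac red cell, had a Cy3 intensity of 4.92 to 6.42 over the 10 tumours and was not well above background on any array. Hbb-bh1, a beta-like chain of early red cells, had 10.3 to 29.9 and was well above background on 2 ALK/MYCN arrays and 1 MYCN array, with the groups overlapping. Neither probe followed the order of the adult genes: Hbb-bh1 was 28.0 in ALK/MYCN 1, 10.3 in MYCN 1 and 19.4 in MYCN 2. The reference signal of Hbb-bh1, 18.1 to 54.7, was of the size of the tumour signal.

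The start regions of the genes hold short motifs known from globin promoters. They are shown for a beta, an alpha, an embryonic and the Alas2 gene because the adult genes moved together and Hba-x, which lies in the same cluster as Hba-a1, stayed near the floor. Each stretch is the 120 bases before the RefSeq start site on GRCm38.p6, on the gene's strand, with capitals for the motif GATAA, the box CACCC, the box CCAAT and the motif ATATAA on either strand.
Hbb-bs, chr7:103827929-103828048, minus strand: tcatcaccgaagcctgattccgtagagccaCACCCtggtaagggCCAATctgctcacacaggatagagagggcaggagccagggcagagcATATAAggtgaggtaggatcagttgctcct
Hba-a1, chr11:32283552-32283671, plus strand: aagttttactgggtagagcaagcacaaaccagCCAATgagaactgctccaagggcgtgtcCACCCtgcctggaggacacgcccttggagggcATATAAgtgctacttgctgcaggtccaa
Hba-x, chr11:32276480-32276599, plus strand: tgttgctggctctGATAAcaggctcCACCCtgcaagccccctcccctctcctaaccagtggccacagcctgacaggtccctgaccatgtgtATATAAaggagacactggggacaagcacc
Alas2, chrX:150547297-150547416, plus strand: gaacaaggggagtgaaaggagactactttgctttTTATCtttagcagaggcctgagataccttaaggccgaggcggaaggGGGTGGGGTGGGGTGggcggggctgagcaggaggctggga
In the 250 bases before the start, GATAA occurred in all 6 members with an entry (Hbb-bs, Hbb-bt, Hba-a1, Hba-a2, Hba-x and Alas2), against 22.6% of the 32851 RefSeq windows of that length. CACCC occurred 1 to 3 times in each of the 6, against 52.0% of windows with at least 1. CCAAT was found in the 4 adult globin genes and not in Hba-x or Alas2 (33.8% of windows), and ATATAA in the 5 globin genes and not in Alas2 (9.10% of windows). Both strands were searched, no match overlapped another in these 6 windows, and a match is not a bound site. The windows of Hba-a1 and Hba-a2 were identical over 297 of 297 bases once shifted by 3.

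Other genes of the pathway did not all follow the members. Of 17 further genes of haem synthesis and its mitochondrial transport, 2 were lower and 3 higher by the ratio, with a median difference of -0.03, against 12.0% lower and 14.0% higher over 22263 genes whose median was -0.00358. Uros and Cpox, later enzymes of the pathway, rose by 0.51 and 0.42. Alas1, the housekeeping counterpart of Alas2, differed by 0.03 (limma adjusted p = 0.969), with a sign that turned in several alternatives. Neither these rises nor the value of Alas1 approached the size in Alas2 by Cy3, where Uros differed by 0.38 and Cpox by 0.46.

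Among the other globins, Ngb (neuroglobin, a globin of neurons) was the 1 of 3 tested that was called, and it passed the filter through the ALK/MYCN arrays alone. Its Cy3 intensity was 47.0 to 122 in ALK/MYCN against 7.83 to 20.9 in MYCN, where it was not well above background on any array. That makes Ngb at least 1.67-fold higher in ALK/MYCN, from the bright group's mean against the array's lowest signal above background or the dim probe's own signal, whichever was higher. The fitted difference is not given, since the MYCN level is a background level.

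Genes that define erythroid cells were detected unevenly. Epor and Slc4a1 were well above background on all 10 arrays. Epb4.2 (protein 4.2 of the membrane skeleton) was not well above background on any array, and the transcription factors Gata1 and Klf1 were so on 1 MYCN array each. Slc4a1, the anion exchanger band 3, had a Cy3 intensity of 27.5 to 67.9 in ALK/MYCN against 58.2 to 308 in MYCN, so that the groups overlapped. The ratio of Slc4a1 fell by 0.88 ± 0.28 (SE; limma adjusted p = 0.0443), a call lost on leaving out any 1 tumour other than MYCN 1 (-0.93 to -0.70 in those 9 fits). Its Cy3 difference was -1.90 (limma adjusted p = 0.0149). Ahsp (Eraf in older naming), the chaperone of free alpha chains, was well above background on all 5 MYCN arrays and on no ALK/MYCN array. Its Cy3 intensity was 6.97 to 24.4 in ALK/MYCN against 41.8 to 757 in MYCN, which is at least 3.45-fold higher in MYCN. Ahsp passed the filter through the MYCN arrays alone, so no fitted difference is given, and its call was lost both when slides were blocked and without ALK/MYCN 3, MYCN 2 and MYCN 5.

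Epor, the erythropoietin receptor, was 72.2 to 121 in ALK/MYCN against 136 to 678 in MYCN by Cy3, without a call by the ratio (-0.97 ± 0.34, limma adjusted p = 0.0598) and with one by Cy3 alone (-1.38, limma adjusted p = 0.0343). Tfrc, the transferrin receptor that brings iron into many cell types, went the other way and rose by 0.66 ± 0.16 (SE; limma adjusted p = 0.0130). Fam46c, a poly(A) polymerase gene of erythroid and plasma cells, fell by 1.33 ± 0.19 (SE; limma adjusted p = 0.00119). Of the 12 other erythroid genes tested, 2 were lower (Ahsp and Fam46c) and 1 higher (Tfrc), with a median difference of 0.06, near the shares over all genes of 12.0% and 14.0%. The count of lower genes includes Ahsp, which entered the test through the MYCN arrays alone.

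Of 10 tested genes of the red cell membrane and skeleton (18 listed), 4 were lower and 2 higher by the ratio (12.0% and 14.0% over all genes), with a median of -0.23. Gypc (glycophorin C) and the water channel Aqp1, genes that other cells also use, both fell by 1.47. By Cy3 alone Slc4a1 and Ank1, the ankyrin of the membrane skeleton, differed more (-1.90 and -2.26) than Gypc (-1.53) and Aqp1 (-1.55); Ank1 was not called by the ratio (-1.13, limma adjusted p = 0.0624; -0.69 without MYCN 2, adjusted p = 0.00488) and was named after its values were seen. Tmod1, which caps actin filaments, rose by 1.13 (2.24 by Cy3 alone). Of 8 tested erythroid transcription factors (12 listed), 6 were lower by the ratio, against 12.0% of all genes, and the median was -0.68. By Cy3 alone 4 of the 8 were lower, against 10.2% of all genes. Gata1 and Klf1 were among the listed factors that failed the filter, so these counts do not cover them. The counts do include Bcl11a and Ldb1, with Cy3 intensities of 3293 to 8306 and 2834 to 4391 over the tumours. Whether these factors came from erythroid cells here was not tested. Myb, a factor of early blood cells, fell by 0.83 ± 0.12 (SE; limma adjusted p = 0.00160), Bcl11a, a regulator of the globin switch, by 0.52, and Tal1 by 0.72. Tal1 missed the threshold without ALK/MYCN 1 (-0.63), ALK/MYCN 5 (-0.69) or MYCN 3 (-0.65), and Bcl11a under median (-0.36) or spike-in centring (-0.31) and without ALK/MYCN 3, MYCN 2 and MYCN 5 (-0.49). Ldb1, a partner of Tal1, differed by -0.19 but by 0.02 under spike-in centring.

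**Figure D4:**
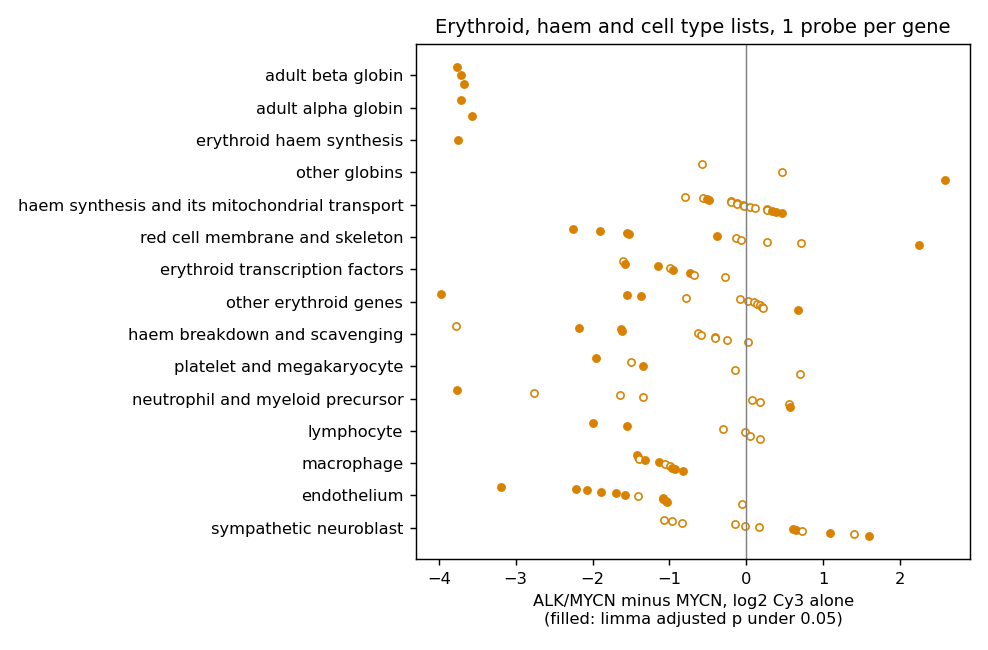
Difference between ALK/MYCN and MYCN in log2 Cy3 alone, 1 point per tested gene, for the members (top 3 rows), erythroid and haem genes and markers of other cell types; filled points passed limma at an adjusted p of 0.05. The member probes lie between -3.76 and -3.56 in a tight group, which haem synthesis genes other than Alas2 do not join. Genes of the haem breakdown and neutrophil lists also reach that size. In the other erythroid list only Ahsp lies there. Ahsp and Ngb passed the filter through 1 group alone, so their points do not measure a size.

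Most endothelial and macrophage markers were lower in ALK/MYCN, as the members were. The counts stand against 12.0% of all genes called lower by the ratio. Of 12 endothelial genes, 10 were lower in ALK/MYCN and the median ratio difference was -0.97; Cdh5, the cadherin of vessel walls, fell by 1.68 ± 0.28 (SE; limma adjusted p = 0.00280). Averaged over the list and centred on all tumours, the endothelial level was -0.85 to 0.15 in ALK/MYCN against 0.07 to 1.04 in MYCN. Of 10 macrophage genes, 7 were lower with a median of -0.80, and their level was -0.70 to -0.16 in ALK/MYCN against -0.32 to 0.88 in MYCN. Within the ALK/MYCN group these levels did not follow the members. ALK/MYCN 1, the highest of its group in the members, had the lowest macrophage level (-0.70) and an endothelial level of -0.75. The highest endothelial level of that group was in ALK/MYCN 3 (0.15). Within the MYCN group, MYCN 1, the lowest in the members, was also the lowest in endothelial (0.07) and macrophage level (-0.32). MYCN 2, the highest in the members, had 0.55 and 0.64, below MYCN 4 (1.04 and 0.88). Among 10 tested genes of haem breakdown and scavenging, 3 were lower, of which Hmox1, the enzyme that opens the haem ring, fell by 2.11 ± 0.48 (SE; limma adjusted p = 0.0117), a call lost without ALK/MYCN 3, MYCN 2 and MYCN 5 (-2.28, limma adjusted p = 0.0587).

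Other blood cells gave a mixed picture, again against 12.0% of genes lower and 14.0% higher by the ratio. Of 5 tested platelet genes (11 listed), 2 were lower, with list levels of -0.67 to -0.14 in ALK/MYCN against -0.60 to 1.19 in MYCN. Of 6 tested lymphocyte genes (10 listed), 2 were lower, with levels of -0.36 to -0.00174 and -0.12 to 0.68. Of 8 tested neutrophil genes (12 listed), 0 passed limma by the ratio at an adjusted p of 0.05, 2 had an unadjusted p under 0.05, and by Cy3 alone 1 was lower and 1 higher (10.2% and 12.5% over all genes). The neutrophil levels were -0.54 to 0.22 in ALK/MYCN against -0.53 to 1.58 in MYCN. For platelet and neutrophil levels, MYCN 1 was the lowest and MYCN 2 the highest of the MYCN group, as in the members. In the ALK/MYCN group both were highest in ALK/MYCN 3, unlike the members. In the tumour cell list, sympathetic neuroblast genes, 0 of 12 were lower and 3 higher, with levels of -0.09 to 0.05 in ALK/MYCN against -0.26 to 0.16 in MYCN. The part of blood, vessel or immune content in the globin difference was not tested.

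Likeness to the globins was measured over the tumours. With group means removed, the ratio profiles over 10 tumours most like the mean of the 5 adult globins among 13457 genes were those of Grk6 (Pearson r = 0.96), Arhgef17 (0.95), Izumo4 (0.94), Ssr4 (0.93), Gng12 (0.92), Cdc14b (0.92), Padi1 (0.91) and Vamp1 (0.91). Alas2, left out of that profile, had 0.97 with it. By Cy3 alone Alas2 had 0.996, Grk6 -0.03 and Padi1 0.09, while the other 6 genes had 0.60 (Ssr4) to 0.87 (Vamp1). The 8 genes most alike by Cy3 alone were all others, with r of 0.88 to 0.90. The r that chance gives for the best of 13457 genes over 10 tumours was not computed. The genes share arrays and reference RNA, and the values describe these 10 tumours only.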

How the data were processed

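RNA of 10 tumours was labelled with Cy3 and Universal Mouse Reference RNA with Cy5, per the labels' protocols. Per the file headers, the authors deposited the spot intensity written by Agilent's scanner software (Feature Extraction 10.7.3.1), and a table of log2 Cy3 over Cy5 per probe, which matched the log2 ratio of the deposited processed signals within 5.01e-04. Here intensity was corrected by normexp (offset 50) and loess in limma 3.58.1 (R 4.3.3), outlier spots (177 to 345 per array) were dropped, spots averaged per probe, and probes kept whose Cy3 signal exceeded background clearly on 5 or more arrays. Groups were compared with lmFit and eBayes over 30857 probes with Benjamini-Hochberg adjustment at 0.05, and tested on simulated data. Cy3 alone is log2 processed intensity minus the array's 75th percentile. Named genes were every member, up to 4 of smallest p per list (printed only where called; neuroblast and some other marker lists as counts) and fixed erythroid markers, with the 8 most alike genes; Alas1 and Ank1 were named after their values were seen. Members and lists were chosen with earlier results of these data known. Alternatives covered correction, normalization, filters, slide, replicate block and left-out tumours; those on Cy5 alone and the variants of Cy3 alone were chosen after seeing the data. Sequences are from the files and RefSeq (GRCm38.p6). Some genes of the lists are not reported here.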

Additional observations from a re-analysis of the deposited data

Results flagged for a closer look

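Among the genes named, 64 groups of 5 values were examined for a tumour far from the others, by a gap to its neighbour above 0.71 of the group's range, and chance gives about 1 in 20. There were 3 such groups, and no globin and not Alas2 was among them. The log2 ratio of Bcl11a was 2.64 in ALK/MYCN 4, below the next tumour at 3.13. The log2 ratio of Alas1 was 1.11 in MYCN 4, above the next tumour at 0.63. The log2 ratio of Ank1 was 2.88 in MYCN 2, above the next tumour at 0.98.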

How the results depend on the processing

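Over 38 or 39 alternatives each, direction and call were kept in 37 for Beta-s, 36 for Hbb-b1, 35 for Hbb-b2, 37 for Hba-a1, 35 for Hba-a2 and 36 for Alas2. The alternatives include fits without 1 tumour and filters that left the member differences unchanged, so they are not independent checks. They also include Cy5 alone, which carried the reference RNA and is not a second measurement of the tumours. The call of Hba-a2 by Cy5 alone (limma adjusted p = 0.0449) is among those counted as kept. Of the 6 member probes, 3 were called on scanner-processed signals, 2 under median centring, 4 under spike-in centring and 1 by Cy5 alone. Hba-a2 turned to 0.13 under median centring and Ldb1 to 0.0203 under spike-in centring; the cause was not tested. Alas1, never called, turned to -0.00164 on scanner-processed signals, -0.0066 with scaling between arrays, -0.0292 by Cy3 alone, -0.17 with slide as a block, -0.43 without ALK/MYCN 3, MYCN 2 and MYCN 5, and ranged from -0.37 (without ALK/MYCN 3) to 0.21 on leaving out 1 tumour. Spike-in centring moved the median of all probes to 0.21, with 1153 called lower and 9685 higher in place of 3469 and 4215. Of all probes, 7684 were called, 4831 without ALK/MYCN 3, MYCN 2 and MYCN 5 (4451 by Cy3 alone), both with fewer tumours, and 87 by Cy5 alone. Cy5 alone called 0 of 113 other list probes by limma, against 48 by the ratio, with 23 at an unadjusted p under 0.05. Leaving out 1 tumour gave 5327 to 7072 calls over the array by the ratio and 4616 (without ALK/MYCN 5) to 6623 by Cy3 alone, and kept all 6 member calls on both scales. The replicate numbers did not pair the tumours (correlations of deviations -0.0972 to 0.301); with the replicate block, 5991 probes and 5 member probes were called, Hba-a2 having a limma adjusted p of 0.0521. Signal over background limits Hba-x and Hbb-bh1 in Cy3 and Beta-s and Alas2 in Cy5.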
